A study of Mus musculus with 22 samples.

Results

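The 8 genes described here, Magea1, Magea2, Magea3, Magea4, Magea5, Magea6, Magea8 and Magea10, are the protein-coding members of the mouse Magea family. They were picked by symbol from the 55335 genes of the deposited expression table, and all 8 were found. The family was chosen by its lower values after H2A.Z knockdown in morulae and blastocysts, so for those comparisons the members' values are given as a description with no test. Both other symbols that start with Magea, the pseudogenes Magea7-ps and Magea9-ps, were outside the selection. They reached a mean of 1.03 and 0.679 FPKM in 2-cell controls and were at 0 in every morula library.

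MAGE (melanoma antigen) proteins share a conserved domain through which many of them bind RING ubiquitin ligases and alter which proteins those ligases mark. The A and B subfamilies lie mainly on the X chromosome and are normally active in male germ cells. Their human counterparts are known as cancer-testis antigens because many tumours switch them on. H2A.Z is a variant of histone H2A that is found in nucleosomes beside many transcription starts.

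The study depleted H2A.Z from mouse embryos with B6D2F1 mothers and B6D2F1 fathers, and asked what early development needs this histone for. For the knockdown (KD), pronuclear zygotes received about 10 pl of a mix of 3 siRNA pairs at 20 μM, injected 20 to 22 h after hCG, and were then grown in culture. The treatment of the control embryos was not stated for these libraries, and the study's methods name noninjected embryos as controls for quantitative PCR. Embryos were harvested at the 2-cell stage (43 to 44 h after hCG), as morulae (78 h) and as blastocysts (94 h), and each library was made from a pool of 15 whole embryos by Smart-seq2 with 16 to 18 preamplification cycles and 150 bp paired reads. There were 4 control and 3 KD libraries of 2-cell embryos, 4 control and 3 KD libraries of morulae, and 4 control and 4 KD libraries of blastocysts, 22 in all. Expression is given as FPKM, fragment counts scaled by transcript length and by the mapped fragments of the library, so levels can be compared between genes per length. The table holds no read totals, so the depth behind each value is unknown. Between 10143 and 12090 genes reached 1 FPKM in a library.

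H2afz, which encodes the main form of H2A.Z and is the gene aimed at, was read first as a check of the labels. At the 2-cell stage it stood at 1244, 1236, 905 and 1178 FPKM in control replicates 1, 2, 4 and 5, and at 415, 139 and 112 FPKM in KD replicates 1, 2 and 4. In morulae it stood at 1158, 1336, 1511 and 1421 FPKM in control replicates 1, 2, 7 and 8, and at 30.3, 25.7 and 29.0 FPKM in KD replicates 1, 2 and 6. Blastocysts had 2656, 2431, 1945 and 2055 FPKM in control replicates 1, 4, 5 and 6, and 64.2, 67.2, 53.2 and 57.6 FPKM in KD replicates 1, 4, 5 and 6. Every KD library was below every control library of its stage, and KD replicate 1 of the 2-cell stage was the least depleted of that stage. The log2 fold change of H2afz, KD minus control, was -5.41 (SE 0.167, limma adjusted p 9.72e-08) in morulae and -5.19 (SE 0.195, adjusted p 3.63e-08) in blastocysts. At the 2-cell stage it was -2.53 (SE 0.382), and the adjusted p of 0.544 missed the threshold. Without KD replicate 1 of that stage it was -3.12 with an adjusted p of 0.000909. H2afv, which encodes a closely related form of H2A.Z, changed by -0.23, -2.94 and -1.86 on the log2 scale in 2-cell embryos, morulae and blastocysts. The morula and blastocyst values of H2afv passed the threshold, with adjusted p of 2.92e-06 and 7.98e-05.

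Marker genes gave another check of the labels. The sum of the 6 markers of the 2-cell stage found in the table, of 7 listed, ran from 233 to 328 FPKM over the 7 libraries of 2-cell embryos, from 1.46 to 10.4 FPKM over the morulae and from 0.291 to 14.4 FPKM over the blastocysts. All 10 trophectoderm markers reached a mean of 1 FPKM in control blastocysts, and their sum ran from 1103 to 1613 FPKM there. None of 6 cumulus cell markers and none of 5 markers of sperm and spermatids reached a mean of 1 FPKM in any group of morulae or blastocysts. The highest sums of these lists in those groups were 0.110 and 1.42 FPKM. In 2-cell embryos the cumulus marker Tnfaip6 averaged 1.68 FPKM in control and in KD libraries, and the cumulus sums ran from 1.19 to 3.06 FPKM in controls and from 1.03 to 3.50 FPKM in KD. The sperm and spermatid sums of that stage were at most 0.929 FPKM.

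All 8 members lie on the X chromosome of GRCm38. Magea6, Magea3, Magea8, Magea2, Magea5 and Magea1 form a cluster on the minus strand. In order of start, Magea6 (ENSMUSG00000063728.10) spans chrX:154924012-154935987, Magea3 (ENSMUSG00000094196.2) spans chrX:154948543-154949505 and Magea8 (ENSMUSG00000079350.2) spans chrX:154985775-154995850. Magea2 (ENSMUSG00000055746.9) spans chrX:155027201-155093666 and encloses both Magea5 (ENSMUSG00000079349.9, chrX:155053061-155063145) and Magea1 (ENSMUSG00000096644.1, chrX:155088686-155089793), with 0 exon bases shared among them. Magea4 (ENSMUSG00000033343.1, plus strand, chrX:72222017-72222964) and Magea10 (ENSMUSG00000043453.5, minus strand, chrX:72381870-72386858) lie apart from the cluster and near each other. Each coding sequence is held in 1 exon.

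**Figure D1:**
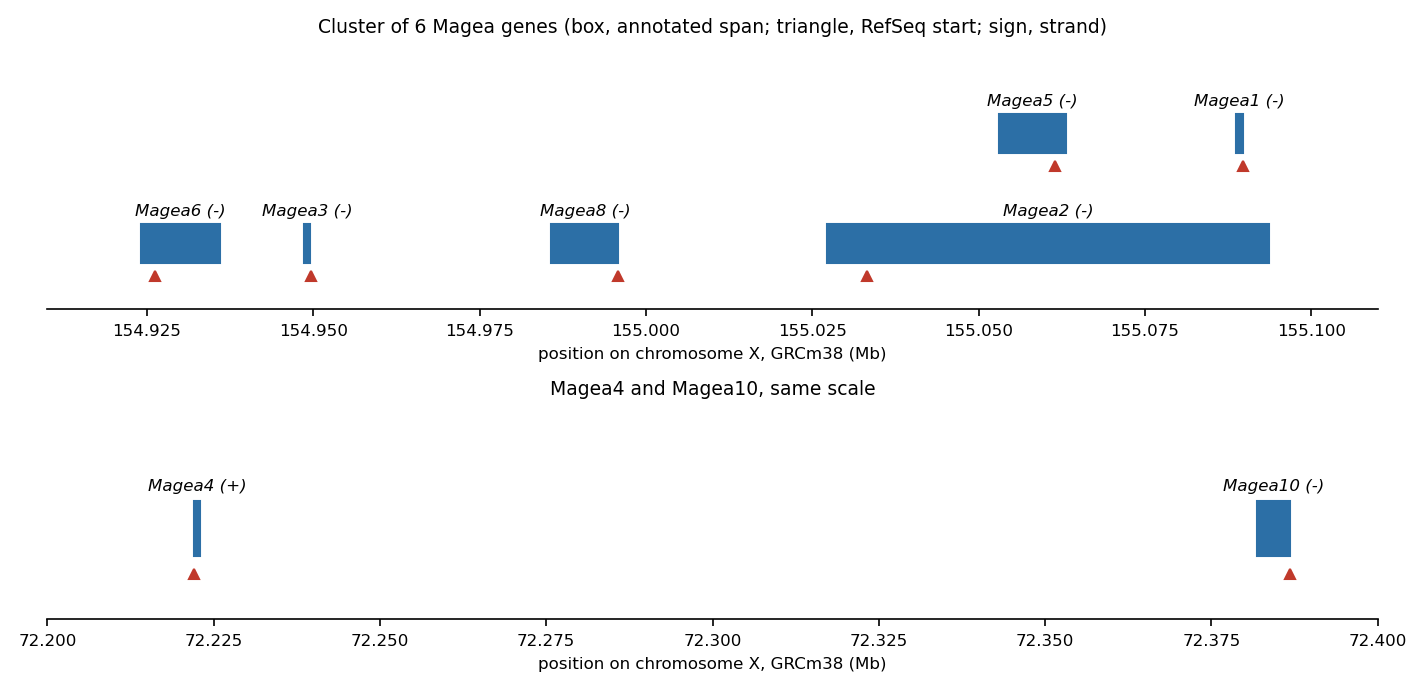
Map of the Magea genes on the mouse X chromosome (GRCm38), position in megabases on the horizontal axis, with both panels on the same scale; boxes are gene spans and triangles are RefSeq transcript starts. The 6 clustered genes are on the minus strand, and the span of Magea2 encloses Magea5 and Magea1.

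The clustered members are close copies. Their coding sequences were 96.1% to 99.3% identical in pairs, with Magea1 and Magea2 the closest pair. Magea4 was 82.8% to 84.5% identical to the clustered genes, and Magea10 was 65.2% to 67.3% identical to them. Of the stretches of 50 bases in the longest transcript, 75.9% occurred in another gene's transcript for Magea1, 58.3% for Magea2, 54% for Magea3, 47.5% for Magea5, 41.5% for Magea8 and 39% for Magea6. The share was 2.34% for Magea4 and 0% for Magea10. At 150 bases, the length of a read, it was 51.8% for Magea1, 38.7% for Magea2, 16% for Magea5 and at most 9.22% for each of the other members. How the deposited values divided reads that fit several of the clustered genes is not known, so the values of single clustered genes, Magea1 and Magea2 above all, are less certain than those of Magea10.

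The summed FPKM of the 8 members rose over the control stages. It was 8.91, 5.87, 7.73 and 7.86 FPKM in 2-cell control replicates 1, 2, 4 and 5, a mean of 7.59 ± 1.26 (SD, n = 4). In morula control replicates 1, 2, 7 and 8 it was 33.4, 33.3, 51.1 and 48.7 FPKM, a mean of 41.6 ± 9.62 (SD, n = 4). In blastocyst control replicates 1, 4, 5 and 6 it was 102, 105, 129 and 63.0 FPKM, a mean of 99.7 ± 27.2 (SD, n = 4). The 3 control groups did not overlap. In KD embryos the sum was 6.30 ± 1.44 (SD, n = 3) at the 2-cell stage, 3.01 ± 0.106 (SD, n = 3) in morulae and 8.51 ± 5.25 (SD, n = 4) in blastocysts. The KD morulae lay between 2.95 and 3.14 FPKM, and the KD blastocysts lay between 3.12 and 15.6 FPKM, so those KD groups overlapped.

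The make-up of the sum changed with the stage. Magea10 gave 54.2% ± 5.41 (SD, n = 4) of it in 2-cell controls and 76.4% ± 18.1 (SD, n = 3) in 2-cell KD embryos. In control morulae Magea5 gave 55.2% ± 10.0 (SD, n = 4) and Magea8 gave 23.0% ± 5.16, and in control blastocysts they gave 45.5% ± 2.95 and 28.1% ± 3.60 (SD, n = 4). Magea10 gave 0.313% of the sum in control morulae and 0.170% in control blastocysts. Magea10 thus gave the largest share of any member at the 2-cell stage, and the sum came mainly from the cluster later.

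**Figure D2:**
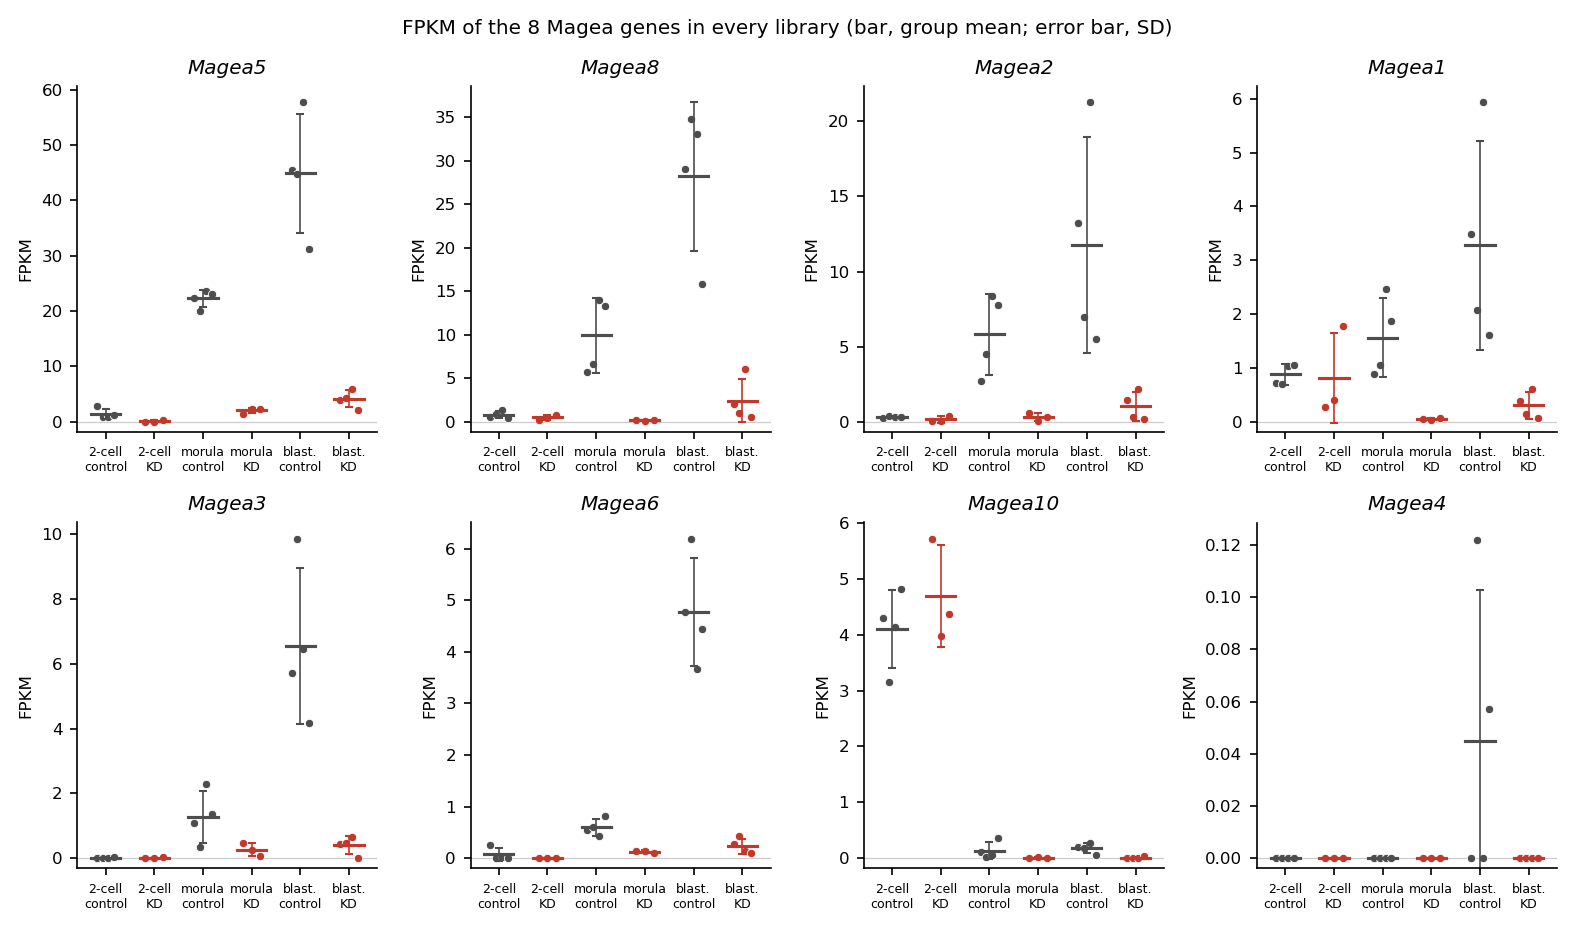
FPKM of each of the 8 Magea genes (vertical axes, 1 panel per gene with its own linear scale) in the 22 libraries, by stage and treatment; points are libraries, bars are group means and error bars are SD. Magea10 is high at the 2-cell stage in control and KD embryos, Magea5 and Magea8 are high in control morulae and blastocysts, and Magea4 reaches no more than 0.122 FPKM.

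Magea10, the member least like the others in sequence, had its highest values in the youngest embryos. At the 2-cell stage it stood at 4.30, 3.14, 4.15 and 4.82 FPKM in control replicates 1, 2, 4 and 5, and at 5.72, 3.98 and 4.37 FPKM in KD replicates 1, 2 and 4. The groups overlapped, and every 2-cell library of Magea10 was above every 2-cell value of the other members. In morulae it fell to 0.103, 0.0261, 0.0613 and 0.362 FPKM in control replicates 1, 2, 7 and 8, and to 0, 0.0228 and 0 FPKM in KD replicates 1, 2 and 6. In blastocysts it stood at 0.207, 0.178, 0.273 and 0.0595 FPKM in control replicates 1, 4, 5 and 6, and was listed at 0 in KD replicates 1, 4 and 5 and at 0.0318 FPKM in KD replicate 6. Both later stages were thus near 0 in all groups, with the KD libraries lowest.

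Magea4 was the member with the lowest values. It was listed at 0 in all libraries of 2-cell embryos and morulae and in the 4 KD libraries of blastocysts. It reached 0.122 FPKM in control replicate 4 and 0.0573 FPKM in control replicate 6 of the blastocysts.

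At the 2-cell stage, the comparison of KD with control was not used to choose the members and was tested. Over all 12160 genes tested there, limma called 0 genes (0%) at an adjusted p below 0.05 and a log2 fold change beyond 1 in either direction, and 701 genes had an unadjusted p below 0.05. That count was 3 without KD replicate 1 (H2afz and the pseudogenes Hmgb1-ps6 and Gm6722) and 1 without control replicate 2 (Gm43602). Of the 8 members, 2 passed the filter of at least 1 FPKM in at least 3 libraries, and 0 were called. Magea10 had a log2 fold change of 0.21 (SE 0.200, limma adjusted p 0.868). Magea1 had a log2 fold change of -0.10 (SE 0.276, limma adjusted p 0.963), which was 0.11 without KD replicate 1 and 0.06 without KD replicate 2. Magea1 stood at 0.723, 0.707, 1.04 and 1.05 FPKM in control replicates 1, 2, 4 and 5, and at 0.279, 0.398 and 1.78 FPKM in KD replicates 1, 2 and 4. KD replicate 4 was above all controls and the other KD libraries were below them.

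For 5 members below the filter, an exact two-sided permutation test over the 35 assignments of the 7 libraries was run on log2(FPKM + 1). The smallest p it can give is 0.0286. Magea5 stood at 2.78, 0.796, 0.814 and 1.16 FPKM in control replicates 1, 2, 4 and 5, and at 0, 0.0234 and 0.359 FPKM in KD replicates 1, 2 and 4. Every KD library was below every control library, with control replicate 1 the highest. This held for 1 of the 8 members and for 0 of the 2 that passed the filter, against 3.14% of the 12160 tested genes. The difference was -1.03 on the log2 scale with an exact permutation p of 0.0286, not adjusted for the 5 members tested. With no filter, limma over 36609 genes gave Magea5 an adjusted p of 0.846. With 1 library left out, in turn, the exact permutation p ran from 0.0667 to 0.133 and the difference from -1.17 to -0.78, the latter without control replicate 1; with 6 libraries the test could not reach 0.05 in any of these.

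The other 4 members had exact permutation p of 0.257 (Magea2), 0.286 (Magea8), 0.543 (Magea6) and 0.971 (Magea3). Their log2 differences were -0.19, -0.28, -0.09 and -0.00 in that order. Magea3 changed sign when control replicate 5 (0.01) or KD replicate 1 (0.00415) was left out. Magea8 was the highest of these, at 0.467 to 1.37 FPKM in controls and 0.218 to 0.83 FPKM in KD embryos. Magea2 lay between 0.269 and 0.364 FPKM in controls, and stood at 0.0353, 0.0424 and 0.412 FPKM in KD replicates 1, 2 and 4. As with Magea1, KD replicate 4 was above the controls for Magea2 and the other KD libraries were below. Magea3 stayed at or below 0.0463 FPKM. Magea6 stood at 0.266 FPKM in control replicate 1 and at or below 0.0245 FPKM in every other 2-cell library, so its difference rests on that replicate.

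From the 2-cell stage to the blastocyst the 6 clustered members rose in controls, while Magea10 fell and Magea4 stayed at or near 0. The members were selected on the contrast of KD and control in the later stages, so nothing is read from the counts that follow. In morulae 5 members passed the filter. Over all 10989 genes tested there, limma called 3.59% in either direction and 2.59% lower in KD. The KD libraries were all below the controls for 6 of the 8 members and for 4 of the 5 that passed the filter, against 15.9% of genes tested. In blastocysts 6 members passed the filter, and limma called 13.9% of all 11828 genes tested in either direction and 7.76% lower in KD. The KD libraries were all below the controls for 7 of the 8 members and for 6 of the 6 that passed the filter, against 19.4% of genes tested. Differences of a member's fold change between the stages were not tested.

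Magea5 was the most abundant member in both stages. In morulae it stood at 22.3, 20.1, 23.6 and 23.1 FPKM in control replicates 1, 2, 7 and 8, and at 1.45, 2.35 and 2.35 FPKM in KD replicates 1, 2 and 6. In blastocysts it stood at 45.6, 44.8, 57.8 and 31.3 FPKM in control replicates 1, 4, 5 and 6, and at 4.01, 4.33, 5.96 and 2.19 FPKM in KD replicates 1, 4, 5 and 6. The groups did not overlap at either stage, and the morula controls lay close together for this gene. The log2 fold change was -2.84 (SE 0.181) in morulae and -3.18 (SE 0.244) in blastocysts, with KD means at 9.22% and 9.19% of the control means.

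Magea8 came next in level in control morulae and in both groups of blastocysts, while in KD morulae its mean was below those of Magea5, Magea2 and Magea3. In morulae it stood at 5.77, 6.70, 14.0 and 13.4 FPKM in control replicates 1, 2, 7 and 8, and at 0.231, 0.107 and 0.217 FPKM in KD replicates 1, 2 and 6. Its blastocyst values were 29.0, 34.8, 33.1 and 15.9 FPKM in control replicates 1, 4, 5 and 6, and 2.02, 1.02, 6.07 and 0.580 FPKM in KD replicates 1, 4, 5 and 6. The groups did not overlap, and in morulae control replicates 7 and 8 were well above control replicates 1 and 2. The log2 fold change was -3.06 (SE 0.312) in morulae and -3.29 (SE 0.386) in blastocysts. KD means were 1.86% and 8.59% of the control means, and the share of Magea8 in the members' sum was 6.12% ± 2.20 (SD, n = 3) in KD morulae against 23.0% in control morulae.

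Magea2 had the same order of control libraries as Magea8 in morulae, replicate 7 highest and replicate 1 lowest. In morulae it stood at 2.69, 4.51, 8.34 and 7.76 FPKM in control replicates 1, 2, 7 and 8, and at 0.610, 0.0494 and 0.341 FPKM in KD replicates 1, 2 and 6. Its blastocyst values were 13.2, 6.98, 21.3 and 5.52 FPKM in control replicates 1, 4, 5 and 6, and 1.47, 0.306, 2.15 and 0.150 FPKM in KD replicates 1, 4, 5 and 6. The groups did not overlap, although blastocyst controls spread widely. The log2 fold change was -2.23 (SE 0.337) in morulae and -2.62 (SE 0.399) in blastocysts, with KD means at 5.73% and 8.68% of the control means.

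Magea1, nearly identical to Magea2 in its coding sequence, was lower in level than Magea2 in morulae and blastocysts. In morulae it stood at 0.880, 1.05, 2.46 and 1.86 FPKM in control replicates 1, 2, 7 and 8, and at 0.0594, 0.0269 and 0.0724 FPKM in KD replicates 1, 2 and 6. In blastocysts it stood at 3.48, 2.08, 5.94 and 1.61 FPKM in control replicates 1, 4, 5 and 6, and at 0.393, 0.145, 0.617 and 0.0648 FPKM in KD replicates 1, 4, 5 and 6. The groups did not overlap, and blastocyst control replicates 5 and 1 were the highest for Magea1 and Magea2 alike. The log2 fold change of Magea1 was -1.21 (SE 0.229) in morulae and -1.63 (SE 0.272) in blastocysts, with KD means at 3.38% and 9.30% of the control means. Adding 1 to each FPKM value shrinks the fold change of genes at so low a level, and with 0.1 added in its place Magea1 was at -3.28 in morulae and -3.12 in blastocysts.

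Magea3 and Magea6 lie at the low end of the cluster's coordinates, and both rose at each step in controls. The mean of Magea3 was 0.0135, 1.27 and 6.55 FPKM in 2-cell, morula and blastocyst controls. That of Magea6 was 0.0752, 0.596 and 4.77 FPKM in the same order. Magea3 stood at 1.09, 0.342, 2.29 and 1.36 FPKM in morula control replicates 1, 2, 7 and 8, and at 0.465, 0.25 and 0.0583 FPKM in KD replicates 1, 2 and 6. KD replicate 1 was above control replicate 2, so the groups overlapped in morulae, and the log2 fold change was -0.76 (SE 0.271). It ran from -1.80 with a pseudocount of 0.1 to -0.24 with a replicate block, which in morulae rests on replicates 1 and 2 alone. In blastocysts Magea3 stood at 5.72, 9.87, 6.46 and 4.16 FPKM in control replicates 1, 4, 5 and 6, and at 0.452, 0.472, 0.657 and 0 FPKM in KD replicates 1, 4, 5 and 6. The blastocyst groups did not overlap, with a log2 fold change of -2.41 (SE 0.236), and the KD means of Magea3 were 20.3% of control in morulae and 6.03% in blastocysts.

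Magea6 did not pass the filter in morulae. It stood at 0.541, 0.598, 0.431 and 0.816 FPKM in morula control replicates 1, 2, 7 and 8, and at 0.136, 0.145 and 0.0928 FPKM in KD replicates 1, 2 and 6. In blastocysts it stood at 4.78, 6.196, 3.68 and 4.44 FPKM in control replicates 1, 4, 5 and 6, and at 0.269, 0.429, 0.136 and 0.102 FPKM in KD replicates 1, 4, 5 and 6. The groups did not overlap at either stage, and in morulae control replicate 7 was the lowest control for this gene. The log2 fold change was -0.48 in morulae and -2.21 (SE 0.185) in blastocysts, with KD means at 20.9% and 4.91% of the control means. Both remaining members were close to 0 in these stages, with log2 fold changes of -0.16 and -0.22 for Magea10 and of -0.06 for Magea4 in blastocysts. The KD means of Magea10 were 5.49% and 4.43% of the control means, and with a pseudocount of 0.1 its log2 fold changes were -0.94 and -1.32. Under the alternatives Magea10 came as near to 0 as -0.0621 in morulae, and Magea4 ran from -0.442 to -0.0261 in blastocysts.

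By mean FPKM in control morulae the order was Magea5 (22.3), Magea8 (9.95), Magea2 (5.83), Magea1 (1.56), Magea3 (1.27), Magea6 (0.596), Magea10 (0.138) and Magea4 (0). Neighbours in that order that overlapped in their libraries were Magea8 and Magea2, Magea1 and Magea3, and Magea3 and Magea6. Within each control morula library Magea8 was above Magea2, and the other overlapping pairs did not keep their order. In control blastocysts the order was Magea5 (44.9), Magea8 (28.2), Magea2 (11.8), Magea3 (6.55), Magea6 (4.77), Magea1 (3.28), Magea10 (0.18) and Magea4 (0.0448). Each pair of neighbours in the blastocyst order overlapped in its libraries except Magea1 and Magea10. Within each control blastocyst library Magea5 was above Magea8, Magea8 above Magea2 and Magea10 above Magea4. The other overlapping pairs of that stage did not keep their order. In 2-cell controls the order was Magea10 (4.10), Magea5 (1.39), Magea1 (0.881), Magea8 (0.817), Magea2 (0.317), Magea6 (0.0752), Magea3 (0.0135) and Magea4 (0), with overlap between Magea5 and Magea1, Magea1 and Magea8, Magea6 and Magea3, and Magea3 and Magea4.

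Pools of whole embryos can differ in their cells, and fewer cells of a type cannot be told apart from less RNA per cell. The summed trophectoderm markers were 741 to 941 FPKM in KD blastocysts against 1103 to 1613 FPKM in controls, with the keratin gene Krt18 the most abundant in both groups (390 and 799 FPKM) and 0 of 10 markers at 0. Of these 10 markers 2 were called lower in KD blastocysts and 0 higher, with a median of -0.19, and those called were Krt18 (log2 fold change -1.02) and the transcription factor gene Elf5 (-1.24). In the other direction, Tfap2c was at 0.96 (limma adjusted p 0.00675) and Krt7 at 0.64 (0.00680), each with groups apart but short of the call, and Dab2 and Cdx2 were at 0.19 and 0.05. Krt18 was not called without control replicate 4 or KD replicates 5 or 6, and ran from -1.13 to -0.93 with 1 library left out. Elf5 was not called without control replicates 1, 4 or 5, and ran from -1.41 to -1.13. The 8 inner cell mass markers summed to 323 to 465 FPKM in control blastocysts and 253 to 417 FPKM in KD blastocysts, with Zfp42 and Nanog the most abundant and none at 0. Of the 6 tested, Tdgf1 (-2.28) was called lower, Pou5f1 was at 0.82 and Nanog at 0.29, and the median was -0.10. In morulae they summed to 285 to 373 FPKM in controls and 168 to 248 FPKM in KD. Nanog (-2.23) was called lower there, from a mean of 105.6 to 20.7 FPKM, while Klf2 was at 0.71 (limma adjusted p 0.0279) and Fgf4 at 0.31, and the median of the 6 tested was -0.21. The summed 2-cell markers were 0.291 to 1.03 FPKM in control blastocysts and 3.16 to 14.4 FPKM in KD blastocysts, with Zfp352 (1.57) called higher. The part of these shifts in the members' values was not tested.

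Transcripts tied to the sex chromosomes were read beside the X-linked members. Eif2s3y, a Y-linked gene for a translation factor subunit, stood at 31.5, 51.4, 14.3 and 60.1 FPKM in blastocyst control replicates 1, 4, 5 and 6 and at 8.64, 9.83, 6.53 and 12.2 FPKM in KD replicates 1, 4, 5 and 6. All KD blastocyst libraries were below the controls, with a log2 fold change of -1.81 (SE 0.378, limma adjusted p 0.00305). In morulae Eif2s3y had a log2 fold change of 0.11 and an adjusted p of 0.774. Xist, the RNA that coats the inactive X chromosome, averaged 5.54 ± 2.94 FPKM (SD, n = 4) in control blastocysts and 9.68 ± 3.83 FPKM (SD, n = 4) in KD blastocysts, with overlapping groups and an adjusted limma p of 0.0791. In morulae Xist averaged 5.62 ± 0.314 FPKM (SD, n = 4) in controls and 6.36 ± 3.25 FPKM (SD, n = 3) in KD. Of the 6 transcripts of this list 4 were tested at each of these stages, and Eif2s3y was the one called. Among the others, Uty averaged 1.68 FPKM in control and 0.186 FPKM in KD blastocysts, Kdm5d 0.328 and 0.0216 FPKM, Ddx3y 9.98 and 7.16 FPKM, and Tsix 11.7 and 14.3 FPKM. In morulae Uty averaged 0.844 FPKM in controls and 0.0996 FPKM in KD, Kdm5d 0.167 and 0.289 FPKM, Ddx3y 7.94 and 7.36 FPKM, and Tsix 8.43 and 7.72 FPKM. The part of the sex-linked transcripts in the members' values was not tested.

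The Mageb genes are the nearest relatives of the members, and 14 of their symbols were in the table, 12 of them on the X chromosome. Mageb16-ps2 lies on chromosome 6 and was the 1 tested gene of the list outside the X chromosome. In morulae 5 of the 6 that were tested were called lower and 0 higher, where 2.59% of all genes tested were called lower. The median log2 fold change was -1.17 against 0.02 over all genes. In blastocysts 5 of 6 were called lower and 0 higher, where 7.76% of all genes tested were called lower. The median was -1.36 against 0.00 over all genes. Mageb1 and Mageb2 passed the filter in both stages by their controls alone, with KD libraries at or below 0.637 and 0.468 FPKM. For such genes a lower KD value is partly set by the filter. The list was chosen with earlier results known, so the counts are a description. At the 2-cell stage 3 were tested and limma called 0. Mageb16, the most abundant coding gene among them, averaged 27.8 ± 7.27 FPKM (SD, n = 4) in control and 9.29 ± 1.05 FPKM (SD, n = 3) in KD morulae, a log2 fold change of -1.33 with a limma adjusted p of 0.00937. In blastocysts it averaged 70.1 ± 12.9 FPKM (SD, n = 4) in control and 16.2 ± 3.94 FPKM (SD, n = 4) in KD, a log2 fold change of -2.06 with a limma adjusted p of 9.83e-05.

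The other Mageb genes called in morulae were Mageb17-ps (-1.54), Mageb16-ps2 (-1.41), Mageb1 (-1.02) and Mageb2 (-1.004), and in blastocysts Mageb16-ps2 (-2.09), Mageb2 (-1.41), Mageb1 (-1.30) and Mageb16-ps1 (-1.03). The morula count was 3 without control replicate 7, 3 without control replicate 8 and 1 with no filter. Mageb1 was not called in morulae without control replicates 2, 7 or 8, and Mageb2 was not called without control replicates 7 or 8 or KD replicate 1; their fold changes were then no nearer to 0 than -0.89 and -0.91. Mageb16-ps1 was not called in blastocysts without control replicate 1 or KD replicate 5, and was -0.86 at the smallest. Of its 50-base stretches Mageb16-ps2 shares 100% with its relatives, Mageb1 93.3%, Mageb2 73.8%, Mageb16 57.8% and Mageb16-ps1 31%. Mageb17-ps shares 0%, and it was called in morulae with any 1 library left out and under each of the 5 other alternatives. In blastocysts Mageb17-ps was the tested Mageb gene that was not called, with a log2 fold change of -0.95 (limma adjusted p 0.00926) and overlapping groups.

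Type II MAGE genes are expressed widely outside the germ line, and 9 were in the table. In morulae 1 was tested and 0 were called, and in blastocysts 2 were tested and 0 were called by limma, where 5440 genes in all had an unadjusted p below 0.05. Nsmce3, a subunit of the SMC5/6 complex, averaged 9.95 FPKM in control and 9.005 FPKM in KD morulae, and 5.15 and 7.28 FPKM in blastocysts. Maged1 averaged 2.34 FPKM in control and 1.01 FPKM in KD blastocysts, a log2 fold change of -0.67 with a limma adjusted p of 0.0218, short of a log2 fold change of -1.

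Known partners of MAGE proteins, 14 genes for ubiquitin ligases, their targets and the SMC5/6 complex, were also read. In morulae 0 of 13 tested were called, with a median log2 fold change of 0.20, where limma gave 3350 of all genes an unadjusted p below 0.05. In blastocysts 0 of 14 were called lower and 2 higher, with a median of 0.32. These were Trp53, which encodes p53 (26.0 ± 11.4 FPKM in control and 56.9 ± 12.8 FPKM in KD, SD, n = 4; log2 fold change 1.19, limma adjusted p 0.00279), and Prkaa1, which encodes a catalytic subunit of AMPK (9.97 ± 0.696 and 21.5 ± 2.77 FPKM; 1.03, limma adjusted p 0.000262). Trp53 was not called without control replicate 1, with a log2 fold change of 0.95. Others were short of a log2 fold change of 1 in size at a limma adjusted p below 0.05. Trim28, the ubiquitin ligase and corepressor bound by several MAGE proteins, averaged 28.4 FPKM in control and 45.5 FPKM in KD blastocysts (log2 fold change 0.60, limma adjusted p 0.0309), and the ubiquitin ligase gene Pja1 averaged 1.78 and 0.496 FPKM (-0.85, limma adjusted p 0.00846, groups apart). Trim27 (0.74, limma adjusted p 0.0369), Usp7 (0.43, 0.0474) and Prkaa2 (0.43, 0.0480) were higher in KD blastocysts, and Huwe1 (0.70, 0.0245) and Usp7 (0.54, 0.0330) in KD morulae, with groups apart in all but Prkaa2.

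Genes for factors that silence germline genes, such as DNA methyltransferases and the PRC1.6 complex, were called by limma in 0 of 12 cases in morulae and 0 of 14 in blastocysts, with medians of 0.19 and 0.20. Rnf2 was higher in KD morulae (0.54, limma adjusted p 0.0425) with groups apart, short of the call. In blastocysts Pcgf6 (0.99, limma adjusted p 0.000481), Dnmt3l (0.95, 0.00217), E2f6 (0.87, 0.0380) and Ehmt2 (0.64, 0.0311) were higher in KD with groups apart and fell short of the log2 fold change needed for a call. Dnmt3b (-0.54, limma adjusted p 0.0409) was lower there, with overlapping groups. Uhrf1 was at -0.52 with overlapping groups, and its limma adjusted p of 0.0676 missed the threshold. A list of other X-linked families known for germline expression was collected by symbol, which also took in Slx1b, Slx4, Slx4ip and Ssx2ip from other chromosomes. Of its tested genes on the X chromosome, 13 of 22 were called lower in morulae and 17 of 24 in blastocysts, and 0 higher, with medians of -1.10 and -1.52. Over all genes tested, 2.59% and 7.76% were called lower. Genes of this list can also pass the filter by their controls alone, so the counts are a description. With the 3 and 4 tested genes from elsewhere, of which 0 were called, the medians were -1.05 and -1.42. The morula count was 7 without control replicate 7, 7 without KD replicate 1 and 0 with no filter, where 32900 genes were tested. In morulae the largest changes were those of Xlr3b (-1.56), Xlr3a (-1.47), Xlr4c (-1.42) and Fthl17b (-1.42), of which Xlr3b and Xlr3a were not called without KD replicate 1 or without KD replicate 2 and were then no nearer to 0 than -1.29 and -1.22. In blastocysts they were Fthl17a (-2.85), Xlr5a (-2.80), Xlr5b (-2.55) and Xlr3c (-2.49), each called with any 1 library left out. Like the Magea cluster, most of these genes share sequence with their relatives, and Fthl17a (0% of 50-base stretches shared) does not.

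**Figure D3:**
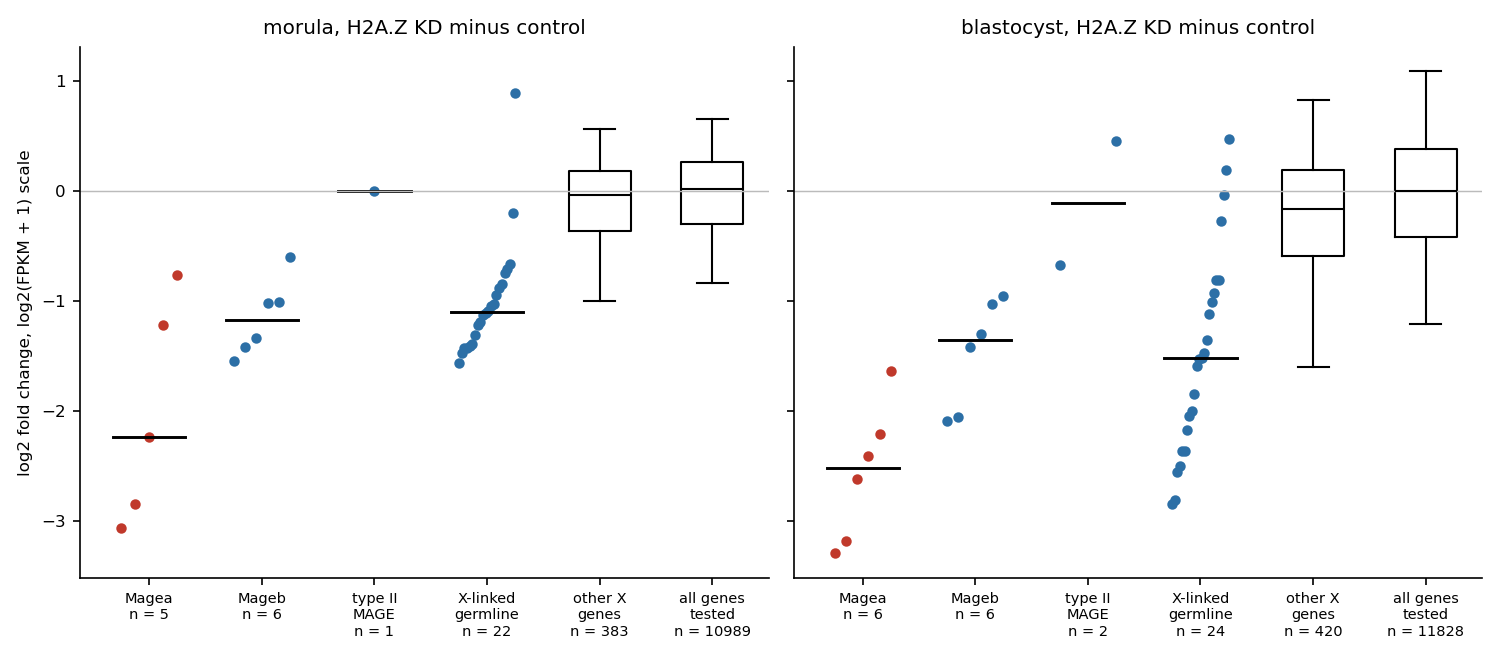
Log2 fold change (KD minus control, vertical axis) of the tested genes of each list in morulae and blastocysts, with the germline families limited to genes on the X chromosome; points are genes with a line at the median, and boxes with whiskers from the 5th to the 95th percentile show the other X chromosome genes and all genes. The Magea points, chosen by this contrast, lie between -3.06 and -0.76 in morulae and between -3.29 and -1.63 in blastocysts, and the medians of the Mageb genes are -1.17 and -1.36.

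X chromosome genes outside the MAGE and germline lists gave the background of the chromosome. In morulae 19 of 383 (4.96%) were called lower and 3 higher, where 2.59% of all genes tested were called lower. The median log2 fold change was -0.03 against 0.02 over all genes. In blastocysts 55 of 420 (13.1%) were called lower and 13 higher, where 7.76% of all genes tested were called lower. The median was -0.16 against 0.00. The share called lower was thus above that of all genes in both stages. The 5 tested genes on each side of the cluster included 1 called lower, Nbdy, which encodes a small protein of messenger RNA decapping bodies and lies 1182092 bases or more from each clustered member. Nbdy changed by -1.03 in morulae (limma adjusted p 0.00561) and by -2.70 in blastocysts (limma adjusted p 3.00e-05), and the median of the 10 neighbours was -0.07 and -0.19. Without control replicate 7 or KD replicate 6 Nbdy was not called in morulae, and was no nearer to 0 than -0.92.

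Around Magea4 and Magea10 more of the neighbours were called. In morulae 4 of 10 were called lower: Vma21 (-1.21), an assembly factor of the proton pump, Nsdhl (-1.08), an enzyme of cholesterol synthesis, and the germline genes Xlr4a (-1.13) and Xlr3a (-1.47). In blastocysts Vma21 (-1.82), Nsdhl (-1.83), Xlr4a (-1.84), Xlr3a (-1.997) and the centrin gene Cetn2 (-1.66) were called lower, 5 of 10. The medians of these neighbours were -0.82 and -1.30. Over all genes tested, 2.59% in morulae and 7.76% in blastocysts were called lower. Xlr4a was not called in morulae without control replicate 7 (-0.99), and Xlr3a was not called without KD replicate 1 or 2, its value then being -1.22 at the smallest.

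Genes with a pattern most like the members' sum were found by Pearson's r of log2(FPKM + 1). The libraries fall into KD and control groups and into stages, and r is given as a description of those groups. Over all 22 libraries and 15690 genes the 5 most alike were Wdr31 (r 0.936, Spearman's rho 0.890), Mageb2 (0.930, 0.855), Mmut (0.928, 0.824), Slc25a24 (0.927, 0.816) and Brcc3 (0.923, 0.859). Over the 15 libraries of morulae and blastocysts and 12721 genes they were Ttc5 (r 0.973, rho 0.979), Cyb561d2 (0.967, 0.932), Pycrl (0.960, 0.964), Nsun6 (0.959, 0.961) and H2afz (0.956, 0.925). Ttc5 averaged 8.89 and 17.1 FPKM in control morulae and blastocysts and 2.31 and 3.52 FPKM in KD. Ranked by Spearman's rho instead, the lists of 5 shared 1 gene and 3 genes with these.

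All 8 members matched a RefSeq transcript start of GRCm38.p6, and 250 bases before to 50 after that start were taken as the promoter. For Magea2, Magea5 and Magea6 that start, at chrX:155033292, 155061553 and 154926115, lies inside the gene span given above. Any start at the far end of these spans, such as that of the Magea2 span enclosing Magea5 and Magea1, was not read. The promoters of Magea2 and Magea8 were 92.6% identical over 285 aligned bases, with an unbroken shared run of 70 bases. Magea10, which differs in stage and lies far from the cluster, aligned to Magea8 over 199 bases at 72.9% identity. Magea5, the highest member, aligned to Magea2 over 229 bases at 76% and to Magea8 over 197 bases at 72.6%. The windows of Magea1 and Magea3 were 86.6% identical over 298 bases and aligned to those of Magea2 and Magea8 over no more than 12 bases. Magea1, Magea3 and Magea4 were annotated with 1 exon, and Magea2, Magea8 and Magea10 with 4. The annotated transcripts of Magea3 and Magea4, at 963 and 948 bases, held little beyond coding sequence of 960 and 945 bases. Whether starts further upstream are missing was not tested, so such windows may not be promoters. Their CpG counts and motif matches carry the same limit. Counts of CpG were 9 in Magea2, 10 in Magea8, 5 in Magea10, 0 in Magea5 and at most 2 in the other members, against a median of 7 over all 32851 promoters.

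The promoters of Magea2, Magea8 and Magea10 share the run GCGCCATTTTGT near the start, and it is shown because members with different stage patterns hold it. It runs from -17 to -6 bases from the start in Magea2, from -2 to 9 in Magea8 and from 12 to 23 in Magea10, counting the start as 0. Searched on both strands, it was found in 5 of 32851 promoters (0.0152%), the others being those of Srsf2 and Dyrk1a. It was picked after the sequences were compared, and a match is a description and not a site. The sequences below are on the minus strand, 5′ to 3′, from RefSeq (GRCm38.p6), with the shared run in capitals: Magea2 is chrX:155033243-155033542, Magea8 is chrX:154995801-154996100, Magea10 is chrX:72386809-72387108 and Magea5 is chrX:155061504-155061803, which holds no such run.
Magea2: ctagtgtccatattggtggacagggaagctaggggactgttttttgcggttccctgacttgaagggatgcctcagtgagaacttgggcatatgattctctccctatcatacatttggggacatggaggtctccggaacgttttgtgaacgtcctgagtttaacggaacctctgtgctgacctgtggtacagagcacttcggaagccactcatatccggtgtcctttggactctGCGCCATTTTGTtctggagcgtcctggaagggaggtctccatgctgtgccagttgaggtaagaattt
Magea8: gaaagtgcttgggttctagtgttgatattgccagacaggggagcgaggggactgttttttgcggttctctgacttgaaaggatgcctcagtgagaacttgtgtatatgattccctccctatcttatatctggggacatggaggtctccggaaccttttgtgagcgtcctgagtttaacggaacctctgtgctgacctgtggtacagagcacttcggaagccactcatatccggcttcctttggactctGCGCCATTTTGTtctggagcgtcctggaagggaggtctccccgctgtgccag
Magea10: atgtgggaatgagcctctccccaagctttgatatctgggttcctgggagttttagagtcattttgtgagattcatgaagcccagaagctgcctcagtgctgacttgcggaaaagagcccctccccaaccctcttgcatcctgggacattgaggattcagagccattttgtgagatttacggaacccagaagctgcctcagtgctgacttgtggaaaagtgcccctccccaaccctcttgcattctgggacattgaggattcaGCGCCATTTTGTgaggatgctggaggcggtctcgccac
Magea5: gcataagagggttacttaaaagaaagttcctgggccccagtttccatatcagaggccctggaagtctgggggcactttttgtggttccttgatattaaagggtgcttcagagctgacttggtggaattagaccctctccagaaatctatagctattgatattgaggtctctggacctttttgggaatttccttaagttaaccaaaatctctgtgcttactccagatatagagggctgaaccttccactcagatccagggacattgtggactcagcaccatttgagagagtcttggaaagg

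Other short motifs were searched in the same windows on both strands. The letters GCCATNTT, the core bound by YY1, lie within the shared run and so were found in Magea2, Magea8 and Magea10, and in 6.05% of all promoters. CGGAAG, the core of ETS factors, was found in Magea2 and Magea8 and in 16.9% of all promoters. CCAAT was found in 5 members (Magea1, Magea2, Magea3, Magea4 and Magea6) and in 37.4% of all promoters. The E-box CACGTG (7.15% of all promoters), the GC box GGGCGG (35.7%) and the CRE TGACGTCA (1.79%) were found in 0 members.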

How the data were processed

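RNA-seq of pooled mouse embryos was read from the deposited FPKM table, which the authors made with STAR and StringTie 2.1.4 on mm10. The table holds no read totals, so the depth is unknown. The 8 members were found by symbol. The members and gene lists were chosen with earlier results of these data known. Within a stage, FPKM was scaled by the median of ratios, log2-transformed with a pseudocount of 1, filtered at 1 FPKM in at least 3 libraries and fitted with limma 3.58.1 (R 4.3.3, trend). Benjamini-Hochberg adjustment covered all genes tested. A call needed an adjusted p below 0.05 and a log2 fold change beyond 1. Members below the filter at the 2-cell stage had an exact permutation test on unscaled FPKM. Named genes were the members, the H2A.Z genes, up to 4 called and 3 most abundant genes per list, called neighbours (5 on each side) and the 5 most alike genes. Gene positions and transcripts came from GENCODE and promoters from RefSeq. Alternatives were a pseudocount of 0.1, no filter, no scaling, scaling over X chromosome genes, a replicate block, leaving out each library, and rank correlation. Figures were drawn with matplotlib 3.10.9 in Python 3.11.15.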

Additional observations from a re-analysis of the deposited data

Results flagged for a closer look

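In 41 groups of 4 libraries checked for a single value far from the others, 3 values of Magea genes were set apart, where chance gives about 1 in 20 groups. That rate assumes independent groups of normally spread values, which these are not, so nothing is read from the count. Magea3 stood at 0.0463 FPKM in 2-cell control replicate 5, above the next library at 0.00779 FPKM. Magea6 stood at 0.266 FPKM in 2-cell control replicate 1, above the next library at 0.0245 FPKM. Magea10 stood at 0.0318 FPKM in blastocyst KD replicate 6, with the other KD blastocyst libraries at 0, where any single value above 0 is set apart. All 3 values were below 1 FPKM.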

How the results depend on the processing

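Under the alternatives, the log2 fold changes of 7 members in morulae (Magea4 was at 0 in every library) and of all 8 in blastocysts were below 0 in all 84 and 104 values, and moved beyond 1 SD in 10 and 6, of which 7 and 6 were under a pseudocount of 0.1. With that pseudocount Magea8 was -4.96 in morulae and Magea3 was -4.01 in blastocysts. The count of called genes in morulae (395) became 790 with a pseudocount of 0.1 and 171 with no filter, and the blastocyst count (1640) became 2479 with the smaller pseudocount. With 1 library left out, these counts ran from 322 to 527 and from 1437 to 1812, and the 2-cell count from 0 to 3. Scaling over X chromosome genes moved the median of all genes to 0.12 in morulae and 0.22 in blastocysts, and the share of called genes that were lower to 52.0% and 33.7% (from 72.2% and 56.0%). That share was 85.7% in morulae with no scaling and 57.8% with a replicate block, which rests there on replicates 1 and 2 alone. With no filter, 1 Mageb gene and 0 genes of the other X-linked germline families were called lower in morulae, where 32900 genes were tested. The replicate block gave 3 and 7, and scaling over X chromosome genes gave 3 Mageb genes. Nanog and Nsdhl were not called in morulae with no filter, nor were Nbdy and Nsdhl when scaled over X chromosome genes, nor Nbdy with the block, and Krt18 and Mageb16-ps1 were not called in blastocysts when scaled over X chromosome genes. Under leave-one-out at the 2-cell stage, Magea1 ran from -0.14 to 0.11 (3 of the 7 fits did not test it), Magea3 from -0.0123 to 0.0118 and Magea5 from -1.17 to -0.78. Magea5 was -1.01 with no filter (adjusted p 0.846). Ranked by rho, the most alike genes shared 1 of 5 over 22 libraries and 3 of 5 over 15. Other than the number of genes or libraries tested, the cause was not tested. One scaling of all 22 libraries kept all 43 group levels within 1 SD.

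After group means were removed, KD and control libraries of the same replicate number had r of 0.0147 to 0.214 at the 2-cell stage (3 pairs), 0.0943 to 0.181 in morulae (2 pairs) and -0.110 to 0.353 in blastocysts (4 pairs). Mean r was 0.146, 0.138 and 0.0825 for the same number, against -0.0487, -0.0281 and -0.0288 for different numbers. Every 2-cell KD library was most like its own number, but control replicate 2 was not, nor were all blastocyst libraries. Morula KD replicates 1 and 2 went with controls 1 and 2, and KD replicate 6 with controls 7 and 8 (r 0.185 and 0.346). Whether these were batches was not tested, and the numbers were not used as pairs. With the replicate block 0, 521 and 1646 genes were called. In morulae only replicates 1 and 2 occur in both groups, so the KD effect under the block rests on those replicates alone. Depth is unknown, so a value of 0 sets no limit on a transcript. Reads that fit several clustered genes leave single members uncertain. Control treatment was not stated for these libraries, and whole-embryo pools cannot separate cell types.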
